A study of Mus musculus with 56 samples.

Results

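The Frizzled receptors are a family of 10 genes in the mouse, Fzd1 to Fzd10, and they were followed here in ribosome-bound and unbound RNA of the neonatal barrel cortex. The members were chosen by gene symbol alone. All 10 were found in each of the 3 count tables of the study, among 55386 gene identifiers listed in any of them.

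Frizzleds are seven-pass membrane receptors for secreted Wnt proteins. In the beta-catenin branch of the pathway a Wnt bridges a Frizzled and an Lrp5 or Lrp6 co-receptor, Dishevelled is recruited, and stabilised beta-catenin acts with TCF/LEF factors on target genes. In the planar polarity branch Frizzleds act with Celsr, Vangl and Prickle proteins. Fzd1, Fzd2 and Fzd7 are close relatives that signal mainly through beta-catenin. Fzd3 and Fzd6 form a pair tied to planar polarity, and in mice Fzd3 is needed for the growth of major forebrain axon tracts. Fzd4 also binds Norrin, the product of Ndp, and is best known for its role in vessels of the retina. Fzd5 and Fzd8 form a further pair of close relatives, as do Fzd9 and Fzd10. The E3 ligases Znrf3 and Rnf43 remove Frizzleds from the cell surface, and secreted Frizzled-related proteins bind Wnts outside the cell.

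The study used translating ribosome affinity purification (TRAP), in which a ribosomal protein fused to green fluorescent protein (eGFP-L10a) marks the ribosomes of chosen cells. RNA pulled down with the tagged ribosomes is the bound fraction, and the RNA left behind is the unbound fraction. The right whiskers of mice were cauterized at postnatal day 4, the barrel cortex was taken at postnatal day 5, and each of 28 cortical pieces gave 1 bound and 1 unbound library, 56 in all. A deprived piece is one whose whisker input was removed, and a control piece is one with intact whiskers.

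The astrocyte line, Aldh1l1EGFP-L10a/+, expresses the tag from the promoter of an astrocyte gene and received no tamoxifen. In both microglial lines a tamoxifen-inducible Cre under the Cx3cr1 promoter switches on the tag (Eef1a1LSL.eGFPL10a/+), and pups were given 50 µg of tamoxifen by mouth each day on postnatal days 1 to 3. The knockout line was Cx3cr1CreErt2/CreErt2(Litt) Eef1a1LSL.eGFPL10a/+, in which both copies of the fractalkine receptor gene Cx3cr1 carry the Cre insertion. The heterozygous line was Cx3cr1CreErt2/+(Litt) Eef1a1LSL.eGFPL10a/+, so that it too lacked 1 copy and no line here with the microglial tag had both. The astrocyte and knockout lines had 5 deprived and 5 control libraries per fraction and the heterozygous line had 4 and 4, with 3 libraries from females and 2 from males in each group (3 and 1 in the heterozygous line, where some pieces share a mouse). The labels give total RNA for the astrocyte and heterozygous lines and polyA RNA for the knockout line, and each line is a separate count table, so genotype cannot be told apart from RNA type and table.

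Astrocyte libraries held 10.9 to 28.6 M counts (M, mega) when bound and 10.1 to 24.3 M when unbound. Knockout libraries were deeper, with 35.8 to 53.9 M bound and 34.6 to 56.7 M unbound, as were heterozygous ones, with 39.9 to 49.7 M bound and 32.8 to 50.7 M unbound. The deleted gene fitted the labels: Cx3cr1 stood at 0.336 to 1.25 CPM in knockout bound libraries and at 6.52 to 12.4 CPM in heterozygous bound libraries (CPM, counts per M of the normalised library size). In the astrocyte line 11 of 12 astrocyte markers were higher in the bound fraction, with Aldh1l1 at 39.7 to 55.5 CPM bound against 10.8 to 14.1 CPM unbound, and in both microglial lines 12 of 12 microglia markers were. The pull-downs were not pure: the 10 neuron markers summed to 5617 to 7853 CPM in astrocyte bound libraries, 6392 to 8732 CPM in knockout bound libraries and 6736 to 9548 CPM in heterozygous bound libraries. The neuron sums were 5226 to 5819 CPM in astrocyte unbound, 5120 to 6170 CPM in knockout unbound and 5327 to 6476 CPM in heterozygous unbound libraries. These markers differed in direction: the log2 difference of bound over unbound ran from -1.11 (Snap25) to 4.21 (Nefl) in the astrocyte line. In the knockout line it ran from -0.97 (Stmn2) to 4.41 (Nefl). In such bulk RNA fewer cells of a type and less RNA per cell cannot be told apart. In the knockout line every deprived piece carries the side letter L and every control piece R. In the heterozygous line the deprived pieces are 14L, 15L, 17L and 17R and the control pieces 14R, 15R, 21L and 21R, so that 17R and 21L go against their side letters. By title both sides of mouse 17 are deprived and both sides of mouse 21 are control, although the right whiskers were cauterized. The titles set the groups, and results that rest on 17R and 21L are given in both ways. Separate mice are named in the microglial lines only. The astrocyte titles name none, so p-values there measure the spread between these samples.

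Fzd1 and Fzd7 carry the main result, and the 250 bases upstream of their RefSeq starts (GRCm38.p6) are shown for that reason. Both genes have a single exon, at chr5:4753839-4758035 on the minus strand for Fzd1 and at chr1:59482424-59486955 on the plus strand for Fzd7 (GRCm38, GENCODE vM21). The windows are chr5:4758217-4758466 and chr1:59481897-59482146, written 5′ to 3′ on the strand of the gene. Capitals mark matches to the TCF/LEF core, searched as CTTTGA or CTTTGT on both strands.
Fzd1: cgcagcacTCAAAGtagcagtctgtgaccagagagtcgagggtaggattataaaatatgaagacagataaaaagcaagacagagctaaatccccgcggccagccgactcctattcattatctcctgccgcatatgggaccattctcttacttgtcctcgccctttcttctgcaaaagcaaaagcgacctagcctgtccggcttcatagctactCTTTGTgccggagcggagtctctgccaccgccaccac
Fzd7: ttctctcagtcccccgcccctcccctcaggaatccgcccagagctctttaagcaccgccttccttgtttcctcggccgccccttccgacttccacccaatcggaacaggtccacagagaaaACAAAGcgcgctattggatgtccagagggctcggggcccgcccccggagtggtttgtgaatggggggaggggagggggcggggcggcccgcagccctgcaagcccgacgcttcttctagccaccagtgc
The Fzd1 window held 2 matches and the Fzd7 window 1, and such a match occurs in 27.6% of 32851 windows of this kind. The GC box GGGCGG, searched on both strands and overlapping none of these matches, occurred 0 times upstream of Fzd1 and 6 times upstream of Fzd7, and in 32.7% of windows. GC content was 51.2% for Fzd1 and 65.2% for Fzd7. Of the 10 genes 6 had a window in the table used, and those of Fzd4, Fzd5, Fzd9 and Fzd10 held 0 matches to the TCF/LEF core. Their GC content was higher, at 72.8% for Fzd4 and 76.4% for Fzd5, Fzd9 and Fzd10. The share of 27.6% was taken over windows of any GC content. The part of GC content in these counts was not tested.

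Fzd3 was by far the most abundant Frizzled RNA in every line and fraction. Per kilobase of exon, it averaged 49.0 ± 4.99 CPM in bound and 52.8 ± 3.79 CPM in unbound astrocyte libraries (SD, n = 10 each). The knockout line had 38.8 ± 3.96 CPM per kilobase bound and 35.5 ± 2.74 unbound (n = 10 each), and the heterozygous line 36.1 ± 7.10 and 35.6 ± 2.67 (n = 8 each). Fzd3 thus made up a mean of 77.6% of the family's summed level per kilobase in bound and 83.1% in unbound astrocyte libraries, and between 81.8% and 85.2% in the microglial lines. Its level per kilobase was 9.08 to 14.6 times that of Fzd1, the next gene, and the ranges of Fzd3 and Fzd1 did not overlap in any line or fraction.

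Fzd1 came second everywhere, with 5.40 CPM per kilobase in bound and 5.04 in unbound astrocyte libraries, 3.58 and 2.86 in the knockout line, and 2.93 and 2.43 in the heterozygous line. By mean Fzd7 came next, with 1.89 CPM per kilobase bound and 1.39 unbound in the astrocyte line. It had 1.16 and 0.879 in the knockout line and 0.892 and 0.765 in the heterozygous line. Its range overlapped that of the gene below it in every line and fraction. In the heterozygous line Fzd7 exceeded Fzd8 in 4 of 8 bound and Fzd6 in 5 of 8 unbound libraries, so its place is not resolved there. Fzd1 exceeded Fzd7 in every one of the 56 libraries. Fzd4, Fzd6, Fzd8 and Fzd9 had lower means, between 0.572 and 1.31 CPM per kilobase, with overlapping ranges, so their order is not resolved. Fzd2 stood at 1.60 CPM per kilobase in astrocyte bound libraries, within the range of its neighbours Fzd7 and Fzd8, and at 0.4998 or less in all other fractions. Fzd5 ranked below it, at 0.214 to 0.435. Fzd10 was lowest in all 6 fractions, between 0.0456 and 0.272 CPM per kilobase, with 0 to 33 counts in a library.

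**Figure D1:**
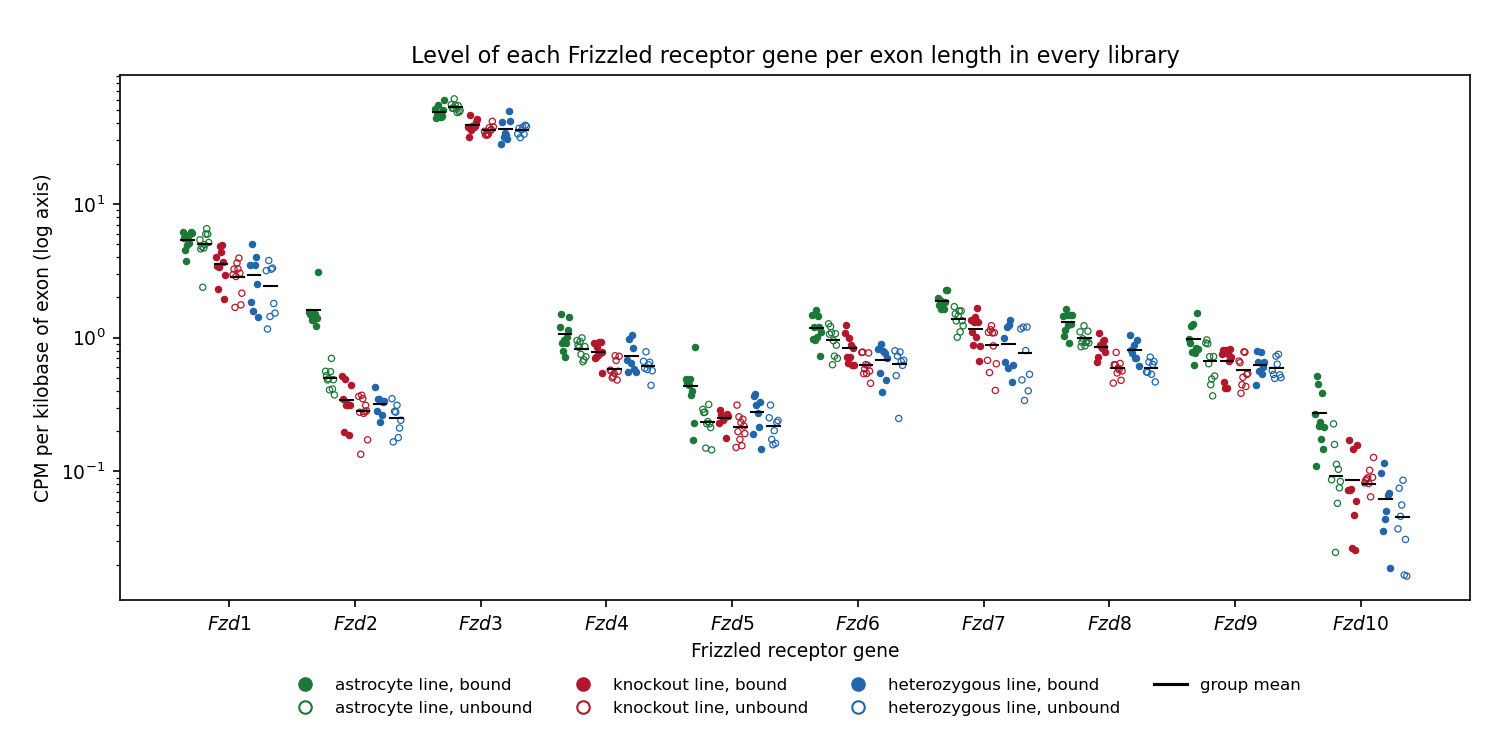
Level of the 10 Frizzled genes per kilobase of exon (CPM per kilobase, log axis) in the astrocyte, knockout and heterozygous lines, bound left of unbound; points are libraries and bars are means, and the 2 libraries without a Fzd10 count are not drawn. Fzd3 lies above all other members in every line, and the bound and unbound astrocyte libraries of Fzd2 do not overlap.

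The bound fraction was then set against the unbound fraction of the same line, which asks which Frizzled RNAs are higher in the pulled-down RNA. Since the pull-downs were not pure, a higher bound level need not come from the tagged cells. Between fractions 59.1% of all genes differed in the astrocyte line at an adjusted p under 0.05 (edgeR's quasi-likelihood test with Benjamini-Hochberg adjustment over all genes, used throughout), with 31.5% higher and 27.6% lower in the bound fraction. Against that background 7 of the 10 Frizzled genes were higher in the bound fraction and 0 were lower. Fzd2 led them. Its bound libraries had a lowest, median and highest value of 4.504, 5.48 and 11.4 CPM, against 1.37, 1.79 and 2.57 CPM in unbound libraries. The 2 ranges did not overlap, as for 11.2% of all genes, and bound exceeded unbound in 10 of 10 pieces. The log2 difference was 1.65 ± 0.15 (SE; adjusted p = 3.78e-10). Its highest bound value came from deprived piece 5, and without that piece the log2 difference was 1.46 (adjusted p = 3.86e-11).

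Fzd7, the relative of Fzd2, had 7.39, 8.26 and 10.4 CPM (lowest, median, highest) in astrocyte bound and 4.57, 6.32 and 7.73 CPM in unbound libraries, with bound higher in 10 of 10 pieces although the ranges overlapped (log2 difference 0.43 ± 0.10, adjusted p = 0.000367). Fzd1, of the same group, did not pass (0.10 ± 0.10, adjusted p = 0.403). Fzd5 had 1.18, 3.08 and 5.87 CPM bound and 1.00, 1.60 and 2.19 CPM unbound (0.84 ± 0.21, adjusted p = 0.000995), and bound was higher in 9 of 10 pieces. Its counts share exons with an antisense gene, Gm38058, and whether the authors counted by strand is not given in the sources used here, so reads of both genes cannot be told apart; the same holds for Fzd6 and Gm26704. Fzd8, the relative of Fzd5, was higher by 0.39 ± 0.10 (adjusted p = 0.00187) and Fzd4 by 0.34 ± 0.12 (adjusted p = 0.0191). The Fzd4 call was lost without control piece 2 (0.28, adjusted p = 0.0572) and without deprived piece 5 (0.26, adjusted p = 0.0777).

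Fzd9 was higher by 0.59 ± 0.18 (adjusted p = 0.00545), in 9 of 10 pieces. Fzd10 was higher by 1.51 ± 0.37 (adjusted p = 0.000897), in 10 of 10 pieces, on 6 to 29 counts per bound and 0 to 10 per unbound library. The planar polarity pair did not pass: Fzd6 gave 0.30 ± 0.14 (adjusted p = 0.0692) and Fzd3 gave -0.10 ± 0.05 (adjusted p = 0.0906). With the cortical piece as a block, which pairs the fractions of a piece, Fzd3 was lower in the bound fraction (-0.11, adjusted p = 0.027). Fzd6 crossed the threshold without control piece 4 (0.35, adjusted p = 0.0452) or deprived piece 4 (0.36, adjusted p = 0.0339).

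In the knockout line 61.9% of genes differed between fractions, with 31.6% higher and 30.4% lower in the bound fraction. 4 of 10 Frizzleds were higher and 0 were lower: Fzd8, Fzd4, Fzd6 and Fzd7. Fzd8 had 3.94, 5.15 and 6.47 CPM (lowest, median, highest) in bound and 2.74, 3.49 and 4.64 CPM in unbound libraries, with bound higher in 10 of 10 pieces and overlapping ranges (0.55 ± 0.09, adjusted p = 2.27e-05). Fzd4 gave 0.42 ± 0.10 (adjusted p = 0.000948) and Fzd6 0.42 ± 0.14 (adjusted p = 0.00945). Fzd7 gave 0.42 ± 0.18 (adjusted p = 0.0454), a call that was kept in 3 of the 10 fits that left out 1 piece; its adjusted p reached 0.105 without deprived piece 12. With the piece as a block Fzd1 (0.32, adjusted p = 2.27e-05) and Fzd3 (0.12, adjusted p = 0.0154) were higher as well, which made 6. Fzd1 was higher in the bound fraction in 10 of 10 knockout pieces.

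In the heterozygous line 62.6% of genes differed, with 31.8% higher and 30.8% lower in the bound fraction. 3 of the 9 Frizzleds tested were higher and 0 were lower, and Fzd10 fell under the filter on low counts. Fzd8 was again the clearest, with 3.69, 4.70 and 6.27 CPM (lowest, median, highest) in bound and 2.79, 3.54 and 4.28 CPM in unbound libraries, and with bound higher in 8 of 8 pieces (0.44 ± 0.12, adjusted p = 0.00294). Fzd1 gave 0.29 ± 0.11 (adjusted p = 0.0354) and Fzd4 0.24 ± 0.10 (adjusted p = 0.0435). Fzd1 lost its call without piece 14R, 15L or 17R (adjusted p up to 0.0984), and Fzd4 without 15L, 15R, 17L, 17R or 21L (adjusted p up to 0.163). Fzd7 lay at the threshold (0.27 ± 0.12, adjusted p = 0.0501) and passed with the piece as a block (0.28, adjusted p = 0.0252). The median log2 difference of the Frizzleds tested was 0.41 in the astrocyte line, 0.31 in the knockout line and 0.27 in the heterozygous line, against 0.03, -0.01 and -0.01 over all genes.

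**Figure D2:**
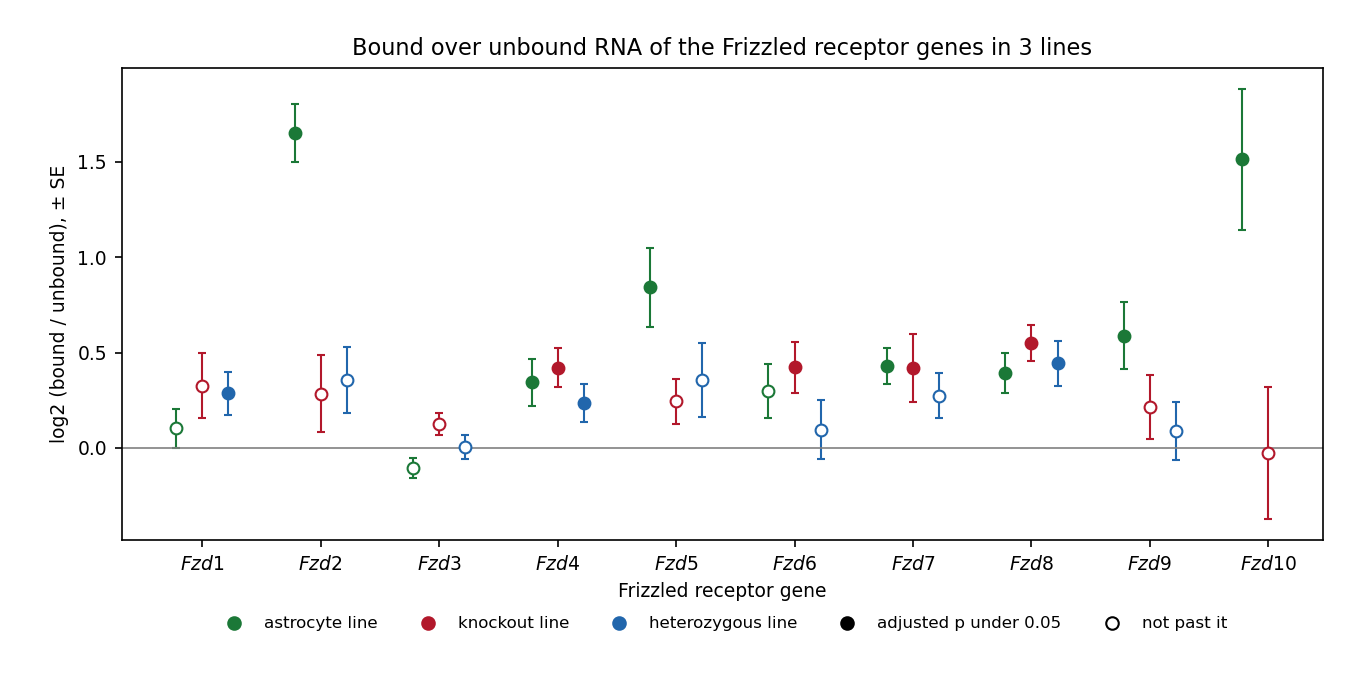
Log2 difference of bound over unbound RNA ± SE for each Frizzled gene in the astrocyte, knockout and heterozygous lines; filled points have an adjusted p under 0.05. Fzd2 and Fzd10 reach 1.65 and 1.51 in the astrocyte line, and Fzd4 and Fzd8 are filled in all 3 lines.

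The ratio of bound to unbound RNA was compared between lines by tests of the difference itself, and Fzd2 had the smallest p of the family against either microglial line. The astrocyte log2 ratio exceeded the knockout ratio by 1.39 ± 0.26 (adjusted p = 2.85e-05) and the heterozygous ratio by 1.38 ± 0.23 (adjusted p = 6.55e-06). In the microglial lines Fzd2 had 1.26 ± 0.41 CPM bound and 1.03 ± 0.28 CPM unbound in the knockout line (SD, n = 10 each), and 1.18 ± 0.22 and 0.925 ± 0.24 CPM in the heterozygous line (n = 8 each), so that its fractions overlapped there. Of all genes 39.8% differed in this way between the astrocyte and knockout lines (20% higher and 19.9% lower in astrocytes) and 41.8% between the astrocyte and heterozygous lines (24.7% higher and 17.1% lower).

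Against the knockout line 4 of 10 Frizzleds differed: Fzd2, Fzd10 (1.55 ± 0.54, adjusted p = 0.0186) and Fzd5 (0.61 ± 0.24, adjusted p = 0.0386) had the higher ratio in astrocytes, and Fzd3 the lower (-0.22 ± 0.08, adjusted p = 0.0245). Fzd5 was lost in 9 of the 20 fits that left out 1 piece, with the smallest value, 0.36 (adjusted p = 0.155), without astrocyte deprived piece 5, and it was lost with the piece as a block (0.55, adjusted p = 0.0515). Fzd3 was lost without astrocyte deprived piece 3 (-0.19, adjusted p = 0.0594) and without knockout piece 18L (-0.17, adjusted p = 0.0763). Against the heterozygous line 2 of 10 differed: Fzd2 and Fzd9 (0.57 ± 0.23, adjusted p = 0.041). The Fzd9 call was lost in 8 of 18 such fits, with adjusted p up to 0.114. The median over all genes stood at 0.06 and 0.14 in these 2 comparisons, so that a log2 difference of this size is the level to read each member against. Between the knockout and heterozygous lines 0 of 10 ratios differed by edgeR, 0 had an unadjusted p under 0.05, DESeq2 called 0, and 0% of all genes did.

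Whisker deprivation was tested within each line and fraction. In the heterozygous line Fzd1 and Fzd7 were each more than 1 log2 unit higher in deprived than in control cortex, in both fractions. In bound RNA, Fzd1 had 14.7, 21.1, 14.7 and 16.8 CPM in deprived pieces 14L, 15L, 17L and 17R, against 7.79, 6.65, 10.7 and 6.01 CPM in control pieces 14R, 15R, 21L and 21R. Every deprived library lay above every control library, as for 8.39% of all genes in bound RNA. The log2 difference was 1.12 ± 0.17 (95% interval 0.75 to 1.48, adjusted p = 0.00212).

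In unbound RNA, Fzd1 had 13.3, 15.9, 13.7 and 13.9 CPM in the deprived pieces in the same order, against 4.87, 6.05, 7.56 and 6.41 CPM in the control pieces. The groups were again apart, by 1.24 ± 0.12 (95% interval 0.98 to 1.5, adjusted p = 6.1e-05). In unbound RNA the deprived group lay wholly above the control group for 4.83% of all genes. Fzd7, its close relative, had 4.53, 5.41, 5.59 and 6.19 CPM in deprived bound libraries, against 2.98, 2.68, 2.13 and 2.85 CPM in control bound libraries (1.04 ± 0.16, 95% interval 0.70 to 1.37, adjusted p = 0.00201). No values overlapped. Its unbound libraries had 5.28, 5.43, 3.63 and 5.44 CPM in deprived pieces, against 2.19, 1.54, 1.82 and 2.41 CPM in control pieces (1.36 ± 0.18, 95% interval 0.97 to 1.74, adjusted p = 0.000756). The lowest deprived value, that of 17L, was still above the highest control value. Fzd2, the other member of this group, was not called (-0.02 ± 0.25 bound and 0.37 ± 0.26 unbound), with 95% intervals of -0.56 to 0.53 and -0.18 to 0.93.

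**Figure D3:**
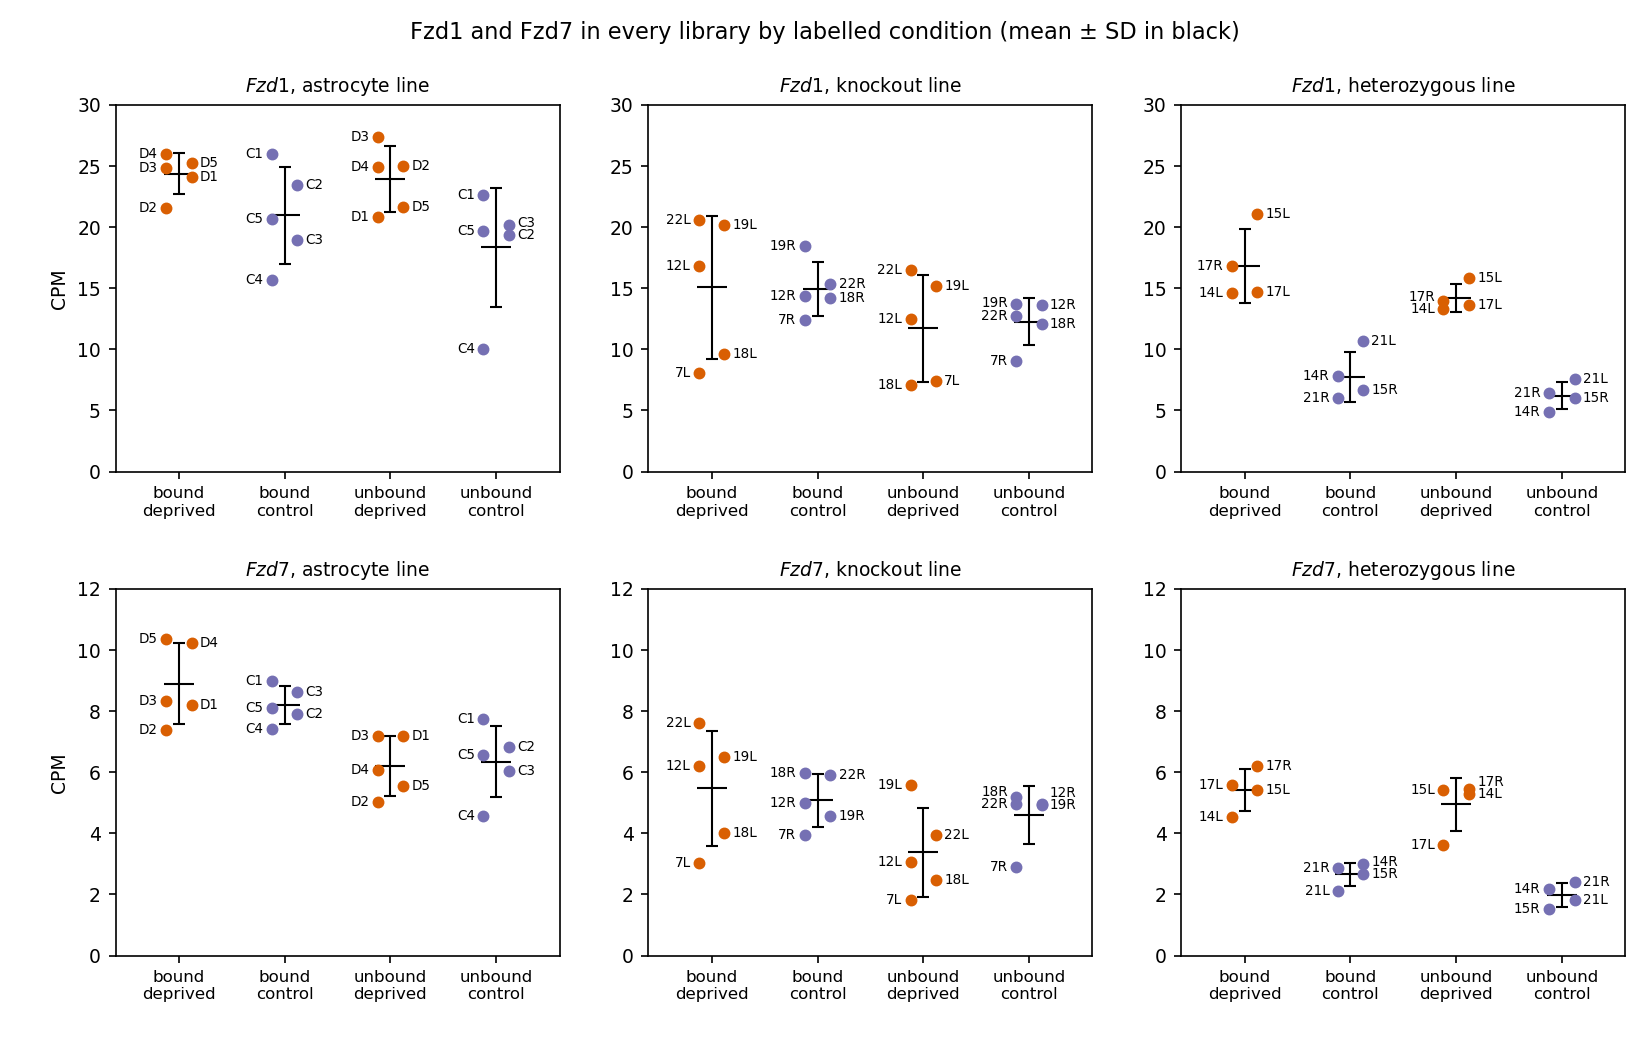
CPM of Fzd1 and Fzd7 in every library, deprived left of control, by line and fraction; points are libraries and bars are the mean ± SD. In the heterozygous line the deprived libraries lie above the control libraries in both fractions, whereas in the astrocyte and knockout lines the groups overlap.

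Fzd4 and Fzd6 were also higher in deprived bound RNA of the heterozygous line and Fzd3 was lower. Fzd4, the Norrin receptor, had 4.62, 6.63, 7.01 and 5.60 CPM in deprived pieces 14L, 15L, 17L and 17R, against 3.75, 4.33, 3.95 and 3.69 CPM in control pieces 14R, 15R, 21L and 21R (0.61 ± 0.15, adjusted p = 0.0205). Fzd6 had 3.97, 4.35, 3.81 and 3.73 CPM, against 2.63, 1.89, 2.33 and 3.39 CPM (0.63 ± 0.18, adjusted p = 0.0401). Fzd3 had 358, 402, 421 and 393 CPM, against 520, 438, 630 and 532 CPM (-0.43 ± 0.10, adjusted p = 0.0165). In none of the 3 did the groups overlap, which also held for 8.39% of all genes with the deprived group higher and for 8.58% with it lower. Counted over the family, 5 of 9 members tested were called in bound RNA, 4 higher and 1 lower, where 10.3% of all genes were called, 5.52% higher and 4.76% lower. In unbound RNA 2 of 9 were called, Fzd1 and Fzd7, where 3.75% of all genes were and 2.7% were higher. Fzd4 (0.37 ± 0.14, adjusted p = 0.159) and Fzd6 (0.57 ± 0.23, adjusted p = 0.206) did not pass, and Fzd3 gave -0.09 ± 0.06 (adjusted p = 0.487). The unbound Fzd4 groups did not overlap, as for 4.83% of all genes with the deprived group higher. Fzd5 (-0.13 ± 0.29), Fzd8 (-0.01 ± 0.17) and Fzd9 (-0.11 ± 0.24) were not called in bound RNA, nor in unbound RNA. No member's change was called as different between the fractions (0 of 9 by edgeR and by DESeq2, with 0% of all genes called by edgeR), and 1 had an unadjusted p under 0.05, Fzd3 with a difference of -0.29 ± 0.12.

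These calls depend on the mice unequally. Fzd1 and Fzd7 were called in 8 of 8 fits that left out 1 library, in each fraction. Fzd3 in bound RNA was too, while Fzd4 was lost without deprived piece 15L or 17L or control piece 21R (adjusted p 0.0601 to 0.0731), and Fzd6 was lost in 7 of 8 such fits, without any library other than control piece 21R (adjusted p up to 0.115). With the mouse as a block, only mice 14 and 15 contribute a deprived and a control piece each. Fzd1 (1.30 bound, adjusted p = 0.0125; 1.47 unbound, adjusted p = 0.000768) and Fzd7 (0.82 bound, adjusted p = 0.0491; 1.58 unbound, adjusted p = 0.0177) passed in that fit, and Fzd3 (-0.32, adjusted p = 0.137), Fzd4 (0.47, adjusted p = 0.186) and Fzd6 (0.91, adjusted p = 0.0597) did not. Grouped by side letter, which moves 17R to the control group and 21L to the deprived group, 0 Frizzleds and 0 of 18001 and 18073 genes were called in bound and unbound RNA. Fzd1 then gave 0.72 ± 0.30 bound (adjusted p = 0.909) and 0.72 ± 0.31 unbound (adjusted p = 0.864), and Fzd7 0.27 ± 0.33 and 0.52 ± 0.40 (adjusted p = 0.936 and 0.87). Without 17R and 21L, Fzd1 and Fzd7 were the 2 members called in each fraction. Pieces 17L and 17R come from 1 mouse, as do 21L and 21R, so by title each group holds 3 mice. With the libraries of these mice summed per mouse, Fzd1 (1.18 bound and 1.30 unbound) and Fzd7 (0.98 and 1.41) were again the members called. With mice 14 and 15 alone, Fzd7 lost its call in bound RNA (0.83, adjusted p = 0.127) and kept it in unbound RNA (1.56, adjusted p = 0.0216), and Fzd1 was called in both (1.32, adjusted p = 0.0318, and 1.47, adjusted p = 0.00688).

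Markers of other cells moved with these groups. The 8 thalamic neuron markers summed to 304.8 to 333.1 CPM in deprived and 222.2 to 247.4 CPM in control bound libraries of the heterozygous line, and to 336.7 to 359.6 and 251.3 to 293.0 CPM in unbound libraries. Of the 7 tested 3 were higher (Zic1, Prox1 and Ntng1) and 1 lower (Cplx1) in bound RNA, and 4 were higher in unbound RNA. None of the 8 was at 0 in all libraries. Zic1, a transcription factor gene on that list which was singled out after its values were seen, had 37.4, 38.9, 45.5 and 25.8 CPM in deprived bound libraries 14L, 15L, 17L and 17R, against 11.7, 6.0, 8.87 and 8.52 CPM in control bound libraries 14R, 15R, 21L and 21R (2.08 ± 0.19, adjusted p = 7.44e-05). The summed astrocyte markers also lay higher in deprived bound libraries (801.7 to 871.7 CPM) than in control ones (690.9 to 760.8 CPM), with 5 of 12 called, as did the microglia markers (288.3 to 345.8 against 165.6 to 242.7 CPM), with 7 of 12 called. In unbound RNA the astrocyte markers summed to 961.1 to 1094 CPM in deprived and 830.4 to 927.8 CPM in control libraries, with 4 of 12 called, and 0 of 12 microglia markers were called. Other sums lay lower in deprived libraries: oligodendrocyte lineage markers in bound RNA (149.0 to 158.2 against 165.1 to 190.4 CPM) and neuron markers in unbound RNA (5327 to 5638 against 5733 to 6476 CPM). The summed endothelial, mural and striatal markers overlapped between the groups in both fractions. The counts of markers called stand against 10.3% of all genes called in bound and 3.75% in unbound RNA of this line. The part of these markers in the Frizzled differences was not tested.

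In the astrocyte line 0 of 10 Frizzleds in bound and 0 of 9 in unbound RNA were called for deprivation by edgeR, which called 0% of all genes, and DESeq2 called 0 members. Fzd1 had 24.1, 21.6, 24.9, 26.0 and 25.3 CPM in deprived bound libraries 1 to 5, against 26.0, 23.5, 19.0, 15.7 and 20.7 CPM in control bound libraries 1 to 5 (0.20 ± 0.12, 95% interval -0.05 to 0.45). In unbound RNA it had 20.8, 25.0, 27.4, 25.0 and 21.6 CPM, against 22.6, 19.4, 20.1, 9.996 and 19.7 CPM (0.35 ± 0.14, adjusted p = 0.764), and the groups overlapped in both fractions. This was 1 of 3 unbound members with an unadjusted p under 0.05, against 6.19% of all genes, and it passed when no filter on low counts was used (0.36, adjusted p = 0.00341).

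The others were Fzd3 (-0.13 ± 0.05) and Fzd9 (-0.72 ± 0.21, adjusted p = 0.676). Fzd9 had 1.02, 1.13, 0.842, 1.66 and 1.19 CPM in deprived unbound libraries, against 2.09, 2.21, 2.07, 1.47 and 1.65 CPM in control ones, with 1 deprived library above 2 of the control libraries. In bound RNA 0 of 10 had an unadjusted p under 0.05, against 6.03% of all genes, and the 8 members other than Fzd1 and Fzd7 lay between -0.46 (Fzd10) and 0.17 (Fzd2). The remaining unbound members lay between -0.25 (Fzd6) and 0.06 (Fzd2). The 95% intervals of Fzd7 were -0.18 to 0.37 bound and -0.34 to 0.24 unbound, which leave out a change of the size seen in the heterozygous line.

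In the knockout line 0 of 10 Frizzleds were called in bound RNA, where 0.00546% of all genes were, and 0 of 10 in unbound RNA, where 0.038% were; DESeq2 also called 0 in each. Fzd1 had 8.11, 16.8, 9.63, 20.2 and 20.6 CPM in deprived bound libraries of mice 7, 12, 18, 19 and 22, against 12.4, 14.4, 14.2, 18.4 and 15.3 CPM in control bound libraries of the same mice. The deprived values spread on both sides of the control values, lower in mice 7 and 18 and higher in mice 12, 19 and 22. The log2 difference was -0.00 ± 0.23 (95% interval -0.48 to 0.48) in bound and -0.07 ± 0.22 (95% interval -0.53 to 0.39) in unbound RNA. In unbound RNA its values were 7.39, 12.5, 7.07, 15.2 and 16.5 CPM in deprived and 9.03, 13.7, 12.1, 13.7 and 12.8 CPM in control libraries.

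Fzd7 had 3.04, 6.19, 4.00, 6.5 and 7.61 CPM in deprived and 3.94, 5.00, 5.97, 4.58 and 5.91 CPM in control bound libraries of the knockout line (0.10 ± 0.22). Its unbound values were 1.83, 3.07, 2.49, 5.57 and 3.94 CPM in deprived and 2.895, 4.97, 5.20, 4.92 and 4.95 CPM in control libraries (-0.44 ± 0.25, adjusted p = 0.999). The deprived value was below the control value of the same mouse in 4 of 5 unbound pairs. Unadjusted p was under 0.05 for 1 member in bound RNA, Fzd10 (-1.07 ± 0.48), and for 1 in unbound RNA, Fzd5 (-0.48 ± 0.18), against 3.77% and 4.74% of all genes. The remaining members lay between -0.20 (Fzd4) and 0.23 (Fzd9) in bound RNA and between -0.27 (Fzd8) and 0.01 (Fzd2 and Fzd3) in unbound RNA. With the mouse as a block 0 members were called in either fraction.

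**Figure D4:**
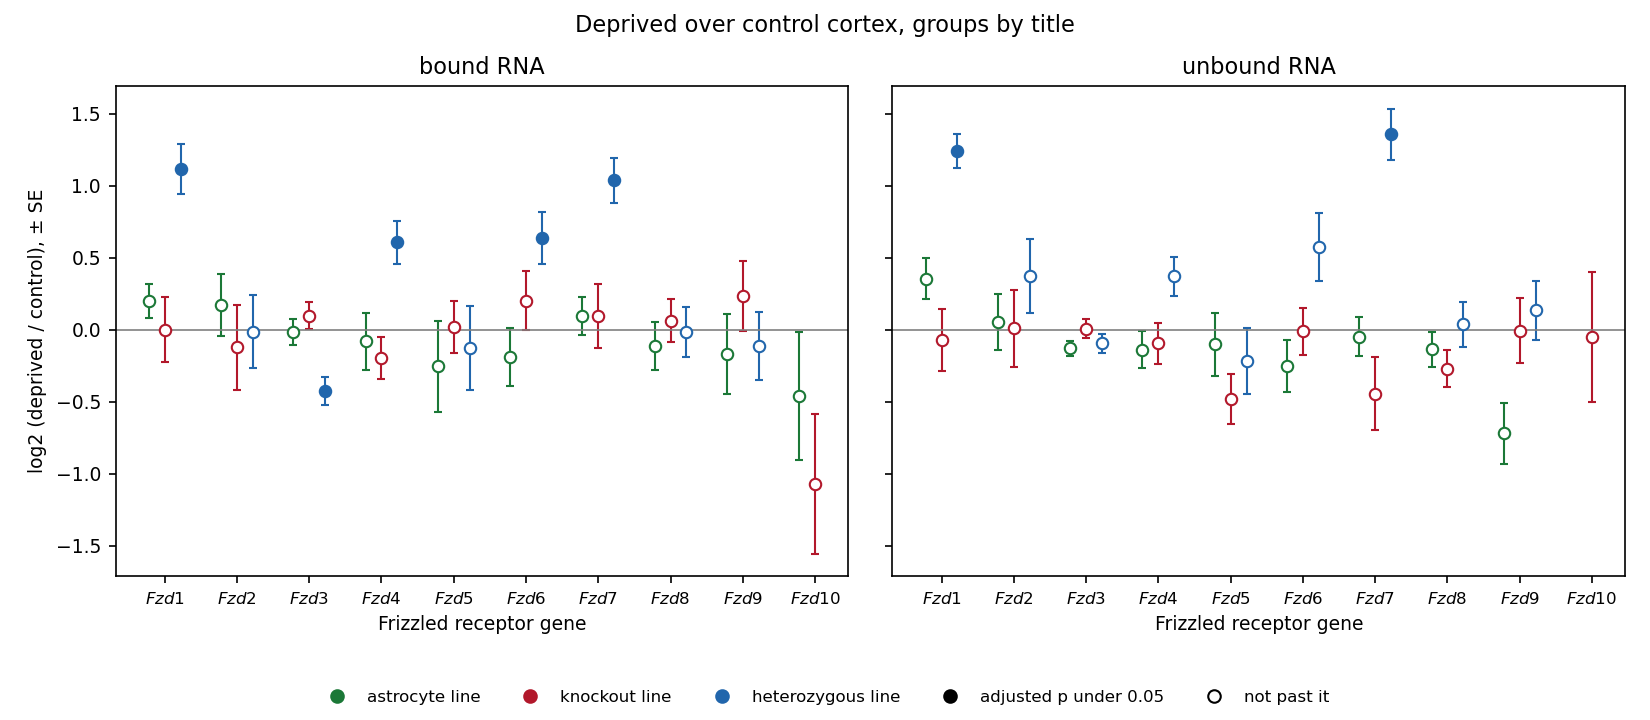
Log2 difference of deprived over control ± SE for each Frizzled gene, in bound (left) and unbound (right) RNA of the astrocyte, knockout and heterozygous lines; filled points have an adjusted p under 0.05. Fzd1 and Fzd7 of the heterozygous line lie above 1 in both panels, and no point of the other lines is filled.

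Whether the response to deprivation differed with genotype was tested directly, as the knockout minus the heterozygous log2 difference. In unbound RNA 2 of 10 Frizzleds differed, where 1.79% of all genes did and 1.28% in the same direction: Fzd1 by -1.30 ± 0.29 (95% interval -1.92 to -0.69, adjusted p = 0.0311) and Fzd7 by -1.79 ± 0.35 (95% interval -2.53 to -1.06, adjusted p = 0.0172). Both had the smaller response in knockout mice. Fzd7 was called in 18 of 18 fits that left out 1 library. Fzd1 was lost without heterozygous piece 14L, 15L, 15R or 21R or without the control piece of knockout mouse 12, 18 or 19 (adjusted p 0.0515 to 0.0784). With the mouse as a block both passed (Fzd1 -1.60, adjusted p = 0.0131; Fzd7 -2.09, adjusted p = 0.0152). Grouped by side letter neither did (-0.79 and -0.96, adjusted p = 0.6 each), nor with heterozygous mice 14 and 15 alone (-1.54 and -2.01, adjusted p = 0.155 and 0.134).

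In bound RNA 0 of 10 differed by edgeR, where 0.51% of all genes did, and 5 had an unadjusted p under 0.05, as did 17.2% of all genes. Among these were Fzd1 (-1.12 ± 0.33, adjusted p = 0.0952), Fzd7 (-0.94 ± 0.30, adjusted p = 0.116), Fzd4 (-0.81 ± 0.21, adjusted p = 0.0705) and Fzd3 (0.52 ± 0.14, adjusted p = 0.0789). Fzd10 was the other (-2.04 ± 0.73, adjusted p = 0.159). DESeq2 called 2, Fzd3 (0.54, adjusted p = 0.0164) and Fzd4 (-0.79, adjusted p = 0.0184), and edgeR without a filter on low counts called 3, Fzd1, Fzd3 and Fzd7. Without the control piece of knockout mouse 7 edgeR called Fzd3 (0.57, adjusted p = 0.0434) and Fzd4 (-0.84, adjusted p = 0.0473).

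Thalamic neuron markers moved with genotype as well. In knockout bound RNA they summed to 202.9 to 345.5 CPM in deprived and 343.0 to 590.5 CPM in control libraries. That direction was opposite to the heterozygous line, but here the ranges of deprived and control libraries overlapped. In unbound RNA 6 of 8 were called with a lower log2 difference of deprived over control in the knockout than in the heterozygous line. Slc17a6 (-0.72, adjusted p = 0.152) and Cplx1 (0.18, adjusted p = 0.315) were not called. Of all genes 1.28% were called with a lower value in the knockout line. Such a lower value can be a fall in the knockout line, as for Tcf7l2 in bound RNA (-2.83 ± 0.35, adjusted p = 0.0153). Zic1 had 5.97, 12.1, 11.5, 48.1 and 34.1 CPM in deprived knockout bound libraries of mice 7, 12, 18, 19 and 22, against 35.3, 97.5, 96.7, 66.8 and 45.6 CPM in control ones. In bound RNA knockout mice 7 and 18, with the lowest deprived Fzd1 values, were among the 3 with the lowest deprived Zic1 values. Mouse 12 was the other of these 3, and its deprived bound Fzd1 value lay above its control value. The part of these markers in the Fzd1 and Fzd7 differences was not tested.

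**Figure D5:**
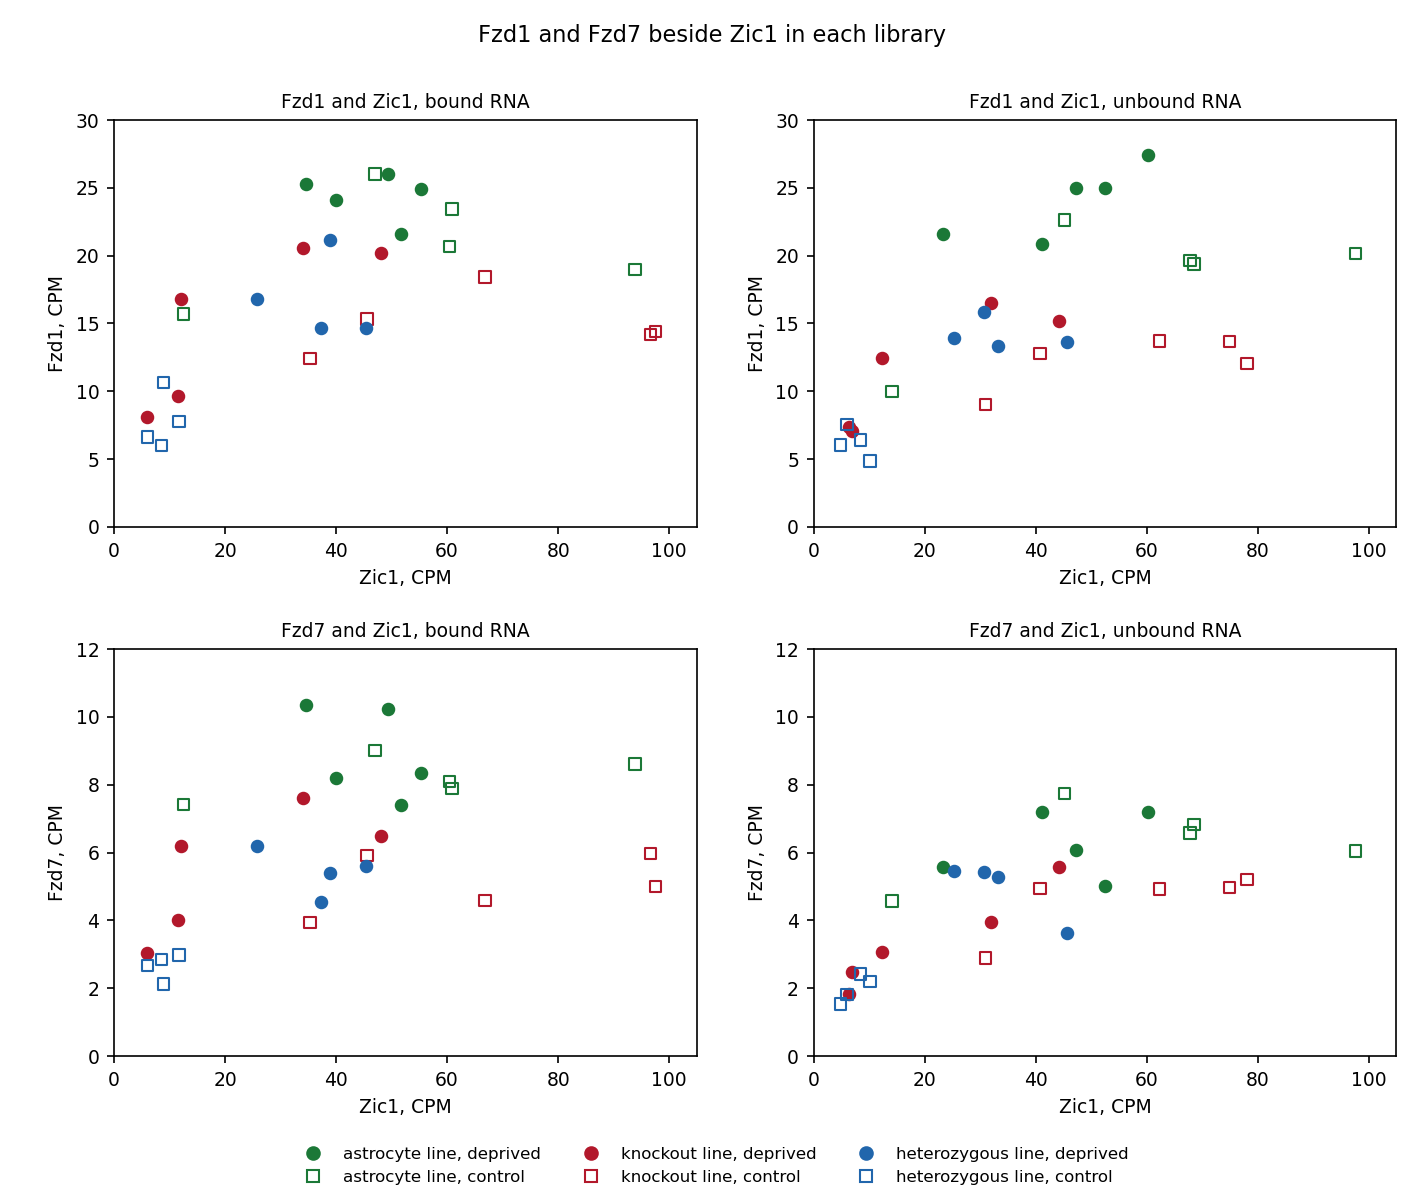
CPM of Fzd1 and Fzd7 in each library against CPM of the thalamic marker Zic1, with bound RNA left and unbound RNA right, lines by colour, deprived libraries as filled circles and control libraries as open squares. In the heterozygous line the deprived libraries are higher in both genes of each panel. In knockout bound RNA the control library with the highest Zic1 level had 97.5 CPM of Zic1 and 14.4 CPM of Fzd1. Zic1 was singled out after its values were seen, and the other thalamic markers are not drawn.

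The other genes of the pathway were counted by list, against 10.3% of all genes called for deprivation in heterozygous bound RNA and 3.75% in unbound RNA. In heterozygous bound RNA 1 of 15 ligand genes was higher, Wnt5a (0.55 ± 0.12, adjusted p = 0.0119), which encodes a Wnt tied to planar polarity, and 0 of 14 co-receptors and receptor modulators and 0 of 4 secreted Frizzled-related proteins were called. 3 of 10 Dishevelled and planar polarity genes were lower: Prickle1 (-0.50, adjusted p = 0.00365), Vangl2 (-0.45, adjusted p = 0.0125) and Dvl3 (-0.31, adjusted p = 0.0316). Of the Frizzled pair tied to that branch, Fzd6 was higher and Fzd3 lower in the same libraries, and both calls were lost with the mouse as a block. In unbound RNA Wnt5a (0.70, adjusted p = 0.00528) and Wnt2 (2.34, adjusted p = 0.0124) were higher among 13 ligands, Prickle1 (-0.52, adjusted p = 0.00144) and Prickle2 (-0.26, adjusted p = 0.0395) were lower, and 0 of 14 co-receptors and 0 of 4 secreted Frizzled-related proteins were called. In the astrocyte and knockout lines 0 genes of any of these lists were called for deprivation. The genotype difference called Rspo4, for an R-spondin ligand, in bound RNA (-9.30 ± 1.77, adjusted p = 0.0283) and Prickle1 (0.55, adjusted p = 0.0488) in unbound RNA. Rspo4 fell under the filter on low counts in the knockout bound fit and in the unbound genotype fit, so its value rests on low counts.

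Between fractions 59.1% of all genes differed in the astrocyte line, 61.9% in the knockout line and 62.6% in the heterozygous line, and the lists are read against those shares. All 10 Dishevelled and planar polarity genes were higher in the bound fraction in all 3 lines, with a median log2 difference of 0.72 in the astrocyte, 0.94 in the knockout and 1.05 in the heterozygous line. Among 14 co-receptors and receptor modulators 10 were higher and 1 lower in the astrocyte line, and 7 higher and 1 lower in each microglial line. Znrf3, which removes Frizzleds from the membrane, was among them (0.66 ± 0.05 in the astrocyte line and 0.77 ± 0.05 in the heterozygous line), as was the co-receptor Lrp6 (0.28 ± 0.04 and 0.59 ± 0.06). Tspan12 was higher in the astrocyte line (0.82 ± 0.07) and lower in the knockout (-0.41 ± 0.10) and heterozygous (-0.44 ± 0.07) lines. Ligand genes were higher in 6 of 16 and lower in 1 in the astrocyte line, in 8 and 1 of 17 in the knockout line and in 7 and 1 of 16 in the heterozygous line. Of the secreted Frizzled-related proteins 2 were higher and 2 lower of 4 in the astrocyte line, against 0 higher and 3 lower in the knockout line and 0 higher and 2 lower in the heterozygous line. The median of the Frizzleds in each line lay below that of the co-receptors and of the planar polarity genes.

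For each Frizzled tested in all 3 lines the genes with the most similar pattern were sought by Pearson's r of mean log2 CPM over the 12 groups, among genes with a symbol and a mean of at least 3. These groups share lines and tables, so r describes likeness only. Fzd1 was most like Nrp1 (0.992), Epha6 (0.988) and Shisa6 (0.985). Fzd2 was most like Lrig1, Tnc and Slc4a4 (0.994 each), of which Slc4a4 is on the astrocyte marker list. Fzd3 was most like Fut9 (0.981), Fzd4 and Fzd6 both most like Bmp7 (0.964 and 0.953), Fzd5 most like Pprc1 (0.940), Fzd7 most like Fgfr1 (0.972), Fzd8 most like Invs (0.992) and Fzd9 most like Pcgf5 (0.870). Among pairs of members r was highest for Fzd1 with Fzd7 (0.964) and next for Fzd6 with Fzd7 (0.946).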

How the data were processed

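Ribosome-bound and unbound RNA of 28 pieces of mouse barrel cortex was measured by RNA sequencing. The values are the authors' deposited raw counts per gene, in 3 tables, 1 per mouse line. Per the submitters' processing notes, the tools named are featureCounts 2.0.0, HISAT2 2.2.0, Trim Galore 0.6.4, FastQC 0.11.9 and cutadapt 2.9, on genome build GRCm38 (mm10). Whether counting used strand is not given in the sources used here.

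Groups come from the sample titles. Genes were tested with edgeR 4.0.16 (quasi-likelihood test, TMM scaling, filterByExpr, R 4.3.3) and p-values were adjusted by the Benjamini-Hochberg method over all genes tested, at a threshold of 0.05, in 17 comparisons. Deprivation fits held the 2 groups compared; fits between fractions held all groups of a line; differences between lines or genotypes were interaction terms over genes in both tables. Tests are two-sided. CPM are scaled by TMM within each line, and log2 CPM used a prior count of 2. Levels per kilobase used GENCODE vM21 exon lengths. Intervals are 95% intervals of the fitted log2 difference. The procedure was tested on simulated data. DESeq2 1.42.0, another scaling, no filter, replicate blocks and leaving out each library were alternatives.

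The naming rule took all 10 Frizzleds in every comparison, whatever their result. Of each pathway list up to 4 genes were taken from those with the smallest p, between fractions in any of the lines. Members with small differences are given as ranges. The members and lists were chosen with earlier results of these data known.

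Mouse numbers pair the pieces of the knockout line, since a mouse gave both sides: deviations from the group means correlated at 0.0937 to 0.271 in bound and 0.0802 to 0.328 in unbound RNA over the 5 mice. In the heterozygous line only mice 14 and 15 gave both groups (0.18 and 0.13 bound, 0.214 and 0.174 unbound). The astrocyte title numbers name no animal.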

Additional observations from a re-analysis of the deposited data

Results flagged for a closer look

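Among 120 combinations of gene and group, 11 held a library far from the others of its group by Dixon's criterion, which chance meets in about 1 in 20 groups. In astrocyte libraries these were Fzd2 in bound deprived library 5 (11.35 CPM, others 4.504 to 5.544), Fzd9 in bound deprived library 4 (3.515 CPM, others 1.436 to 1.92), Fzd8 in unbound deprived library 4 (6.685 CPM, others 5.187 to 5.616) and Fzd1 in unbound control library 4 (9.996 CPM, others 19.37 to 22.64). In knockout libraries they were Fzd9 in bound deprived library 18 (1.074 CPM, others 1.721 to 1.899), Fzd3 in unbound deprived library 7 (531.2 CPM, others 427.9 to 455.6), Fzd6 in bound control library 12 (6.042 CPM, others 3.022 to 3.454) and Fzd7 in unbound control library 7 (2.895 CPM, others 4.923 to 5.197). In heterozygous libraries they were Fzd7 in unbound deprived piece 17L (3.63 CPM, others 5.276 to 5.441), Fzd4 in unbound control piece 21L (2.958 CPM, others 3.807 to 3.97) and Fzd9 in unbound control piece 15R (1.669 CPM, others 1.153 to 1.218).

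The ratio of bound to unbound RNA differed between lines by a test of the difference for Fzd2 (log2 1.386 astrocyte minus knockout and 1.375 astrocyte minus heterozygous), Fzd9 (0.5735 astrocyte minus heterozygous), and Fzd3, Fzd5 and Fzd10 (-0.2186, 0.6123 and 1.553 astrocyte minus knockout). The response to deprivation in unbound RNA differed between knockout and heterozygous mice for Fzd1 (-1.304) and Fzd7 (-1.794). RNA type and count table differ with genotype and line and cannot be told apart from them.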

How the results depend on the processing

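No result reversed. The 5 Frizzleds called for deprivation in heterozygous bound RNA became 2 with the mouse as a replicate block, without pieces 17R and 21L, without mouse 17, without mouse 21 and with the libraries of mice 17 and 21 summed per mouse, 1 with mice 14 and 15 alone and 0 by side letter; leaving out 1 library gave 3 to 4. The 2 called in unbound RNA became 0 by side letter. For genotype in unbound RNA the 2 became 0 by side letter and 0 with heterozygous mice 14 and 15 alone, and 1 to 2 without 1 library. For genotype in bound RNA the 0 became 3 with no filter, 2 with DESeq2, and 0 to 2 without 1 library. The 0 of astrocyte unbound RNA became 1 with no filter. Of the 2 ratios that differed between astrocyte and heterozygous lines 1 was called with RLE size factors, with no filter and with DESeq2, and 1 to 2 without 1 piece. Leaving out 1 piece gave 1 to 5 bound-over-unbound calls in the heterozygous line (3 with all) and 2 to 4 differences between astrocyte and knockout lines. The mouse and title number blocks changed no other count of Frizzleds. The fits with mice left out, alone or summed were chosen after seeing the data. The cause of these changes was not tested, apart from the smaller number of samples.

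Over all genes, the 1850 calls in heterozygous bound RNA became 1092 with the mouse block, 741 without 17R and 21L, 773 without mouse 17, 468 without mouse 21, 951 summed, 119 with mice 14 and 15 and 0 by side letter. The 678 in unbound RNA became 1459 with no filter, 1170 with DESeq2, 226 with the mouse block, and 294, 305, 391, 194 and 0 under the settings without 17R and 21L, without mouse 17, without mouse 21, with mice 14 and 15, and by side letter. The 100 genotype calls in bound RNA became 576 with no filter, 734 with DESeq2, 2 by side letter and 4 with mice 14 and 15; the 345 in unbound RNA became 872, 823, 2 and 17, and 186 with the mouse block. Fzd10, with 0 to 33 counts in a library, is limited by depth.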
